A study of Homo sapiens with 6 samples.

Results

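The nuclear-encoded subunits of the respiratory chain were examined in HGC-27 cells with and without knockdown of ACAT2, the cytosolic acetyl-CoA thiolase. Members were the protein-coding genes whose symbols belong to the families NDUFA, NDUFB, NDUFC, NDUFS and NDUFV, SDHA to SDHD, UQCR, CYC1, CYCS, COX4 to COX8, and ATP5. The symbols gave 92 genes of 58735 in the table, or of 19951 protein-coding genes. They comprised 37 genes of complex I, 4 of complex II, 10 of complex III, 1 for cytochrome c, 19 of complex IV and 21 of complex V. NDUFA4 and its paralog NDUFA4L2 carry complex I symbols but were counted with complex IV, where the NDUFA4 protein is found.

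HGC-27 is an established line of undifferentiated human gastric carcinoma, recorded in the labels as wild type. In 3 libraries the cells carried pSIH-H1-Puro-shNC, the control vector, and in 3 libraries pSIH-H1-Puro-shACAT2, with a hairpin against ACAT2. Both groups received the vector for 24 h and then puromycin for 7 days, so that vector and selection were shared by the controls. The labels do not give the hairpin used, and n counts libraries here, since separate cultures are not described beyond the words biological replicates. If the libraries of a group share a culture, the p-values measure technical spread only.

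The respiratory chain passes electrons from NADH, through complex I, and from succinate, through complex II, to ubiquinone. Complex III hands them to cytochrome c and complex IV to oxygen. Complexes I, III and IV pump protons across the inner mitochondrial membrane, and complex V, the ATP synthase, uses their return to make ATP. Most subunits are encoded in the nucleus, and the mitochondrial genome adds subunits to every complex except complex II.

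Levels were deposited as FPKM, fragments per kilobase of gene length scaled per library. The scale was not the total of fragments on genes. It was 0.957 times that total in shACAT2-1 and 1.07 times in shNC-2 and shNC-3. Genes held from 14086416 fragments in shACAT2-3 to 16067486 in shNC-3, and 25337 to 27196 genes had a value above 0 in 5 libraries, against 36466 in shACAT2-3. A chi-square per gene of 1.73 set shNC-2 and shNC-3 close together, where other same-group pairs gave 12.1 to 46.0. ACAT2, the target, had 12.9 ± 1.25 FPKM in control and 5.90 ± 0.388 FPKM in knockdown libraries (mean ± SD, n = 3 per group), a log2 difference of −1.01 (SE 0.10, limma adjusted p = 0.0059, or 0.0512 without shNC-3). Of 10 markers of gastric epithelium, none reached a group mean of 1 FPKM. CDH1, E-cadherin, had 0.222, 0.120 and 0.141 FPKM in shNC and 0.608, 0.828 and 1.15 FPKM in shACAT2 libraries. Its groups did not overlap, on 12 to 107 fragments per library, and it was under the filter and not tested. KRT8 was at 0.785 FPKM or less, and TFF1 and GKN1 were at 0 in all 6 libraries. The markers of other cell types PTPRC, CD3E, CD68, PECAM1 and VWF were at 0.257 FPKM or less. VWF (0.257 FPKM), CD3E (0.187), PECAM1 (0.0945) and PTPRC (0.0727) were highest in shACAT2-3, while CD68 was at 0 there. CD3E and PECAM1 were at 0 in every other library. All 5 mesenchymal genes on that list, VIM, COL1A1, COL1A2, DCN and ACTA2, were expressed and higher in every shACAT2 library than in any shNC library.

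Almost every subunit of the respiratory chain was transcribed in HGC-27 cells. Of the 92 genes, 82 were tested because 1 or both group means reached 1 FPKM. The 10 that did not were NDUFA7, NDUFV2, NDUFC2-KCTD14, COX4I2, COX6A2, COX6B2, COX7B2, COX8C, ATP5MF-PTCD1 and ATP5MGL. ATP5F1B, the catalytic beta subunit of ATP synthase, had the highest level, with 1032, 856 and 868 FPKM in the shNC libraries 1 to 3 and 1223, 956 and 991 FPKM in the shACAT2 libraries 1 to 3. The accessory complex I subunit NDUFS5 led its complex, with 464, 382 and 388 FPKM in shNC and 553, 428 and 365 FPKM in shACAT2 libraries. For both genes the 2 groups overlapped, and the library with the highest level was shACAT2-1.

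Subunit genes of 1 complex differed widely in level per length. In shNC cells the mean levels of the genes tested ran from 1.85 FPKM for NDUFA13 to 412 FPKM for NDUFS5 in complex I, over 34 genes. In complex V they ran from 2.85 FPKM for ATP5S, the coupling factor B, to 919 FPKM for ATP5F1B, with a median of 34.6 FPKM over 19 genes. Complex III had a median of 66.8 FPKM and was led by UQCRH, the hinge protein, at 121 FPKM. Complex IV had a median of 48.5 FPKM and was led by COX6B1 at 212 FPKM. The 4 genes of complex II lay within a narrow range, from 9.89 FPKM for SDHC, a membrane anchor, to 27.9 FPKM for SDHB, the iron-sulfur subunit. The deposited length of a gene is the union of its exons, so a gene with long rare transcripts is set lower. NDUFV2, a core subunit of complex I with an iron-sulfur cluster, had 0.651, 1.23 and 0.792 FPKM in shNC and 0.316, 0.821 and 0.910 FPKM in shACAT2 libraries. Of the fragments on NDUFV2 and its pseudogene, 46.9% lay on the pseudogene. Of the exon bases of NDUFV2, 28.4% were shared with another gene on the same strand, as were 32.3% of NDUFA7 and 16.1% of NDUFA13, and the part of pseudogenes or shared bases in their levels was not tested.

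**Figure D1:**
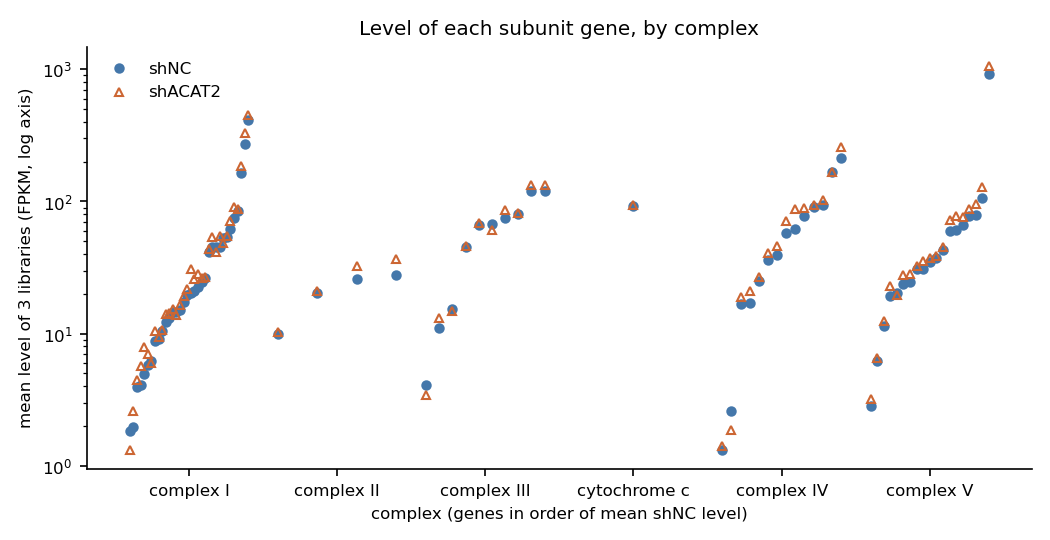
Mean level (FPKM, log axis) of the 82 genes tested, 1 pair of symbols per gene, in order of level within each complex; filled circles are shNC and open triangles shACAT2 means of 3 libraries. Levels within complex V ran from 2.85 FPKM (ATP5S) to 919 FPKM (ATP5F1B) in shNC cells, and the 2 groups lay close together beside this range.

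The central comparison asks how the subunits of each complex differed between shACAT2 and shNC cells. NDUFA5 and NDUFS4, both accessory subunits of complex I, rose in shACAT2 cells, and no other subunit passed an adjusted p of 0.05 in limma, in either direction. The 2 genes are 2.44% of the 82 tested, against 5.1% of all 13832 genes tested. In the upward direction all genes gave 3.3%, and in the downward direction 1.81%. Lower in shACAT2 cells were 0 of the 82 at an adjusted p below 0.05 in limma, and 1, NDUFA4L2, at an unadjusted p below 0.05. In either direction 7 of the 82 had an unadjusted p below 0.05, against 23.5% of all genes tested. With an absolute log2 difference above 1 and an unadjusted p below 0.05, 207 of all genes passed and none of the subunits. A total RNA sample does not show whether fewer transcripts per cell or a different mixture of cells lies behind a level.

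NDUFA5 (ENSG00000128609), a subunit of the matrix arm, lies on chromosome 7 of hg38 from 123536997 to 123558255 on the minus strand. Its level was 4.62, 5.23 and 5.09 FPKM in shNC and 7.43, 8.31 and 8.06 FPKM in shACAT2 libraries, in order of number. The groups did not overlap, and shACAT2-1 was the lowest of its group here, unlike in most subunits. The log2 difference was 0.58 (SE 0.09, limma adjusted p = 0.0198), from 696 to 1361 fragments per library. Across the alternatives it stayed between 0.53 and 0.67, and the limma adjusted p was at most 0.112. Named pseudogenes of NDUFA5, 12 in number, held 0.770% of the fragments of gene and pseudogenes together.

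NDUFS4 (ENSG00000164258), a late-assembled subunit of the matrix arm mutated in Leigh syndrome, lies on chromosome 5 of hg38 from 53560633 to 53683340 on the plus strand. Its level was 20.8, 20.2 and 20.2 FPKM in shNC and 36.2, 28.8 and 28.0 FPKM in shACAT2 libraries. The shNC libraries were nearly equal, all shACAT2 libraries lay above them, and shACAT2-1 stood highest. The log2 difference was 0.57 (SE 0.12, limma adjusted p = 0.0477). Neither gene passed when shACAT2-2 or any 1 of the shNC libraries was left out, with a limma adjusted p of 0.0815 to 0.112 for NDUFA5 and 0.118 to 0.197 for NDUFS4, and both missed, at 0.103 and 0.194, when the 2 alike shNC libraries were averaged. Without shACAT2-1 or without shACAT2-3 both still passed. Among all genes, 706 passed in the main fit, 129 without shACAT2-2, 63 to 135 without 1 shNC library and 83 after the averaging. Without shACAT2-1 the count was 862, and without shACAT2-3 it was 704.

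The libraries of number 1 shared deviations, so limma was also run with the replicate number as a block. The libraries shACAT2-2 and shACAT2-3 correlated slightly more with shNC-3 and shNC-2 (0.141 and 0.198) than with their own number (0.126 and 0.171). Numbers 2 and 3 are thus not shown to be pairs. With the block, 4 subunits were higher at an adjusted p below 0.05, or 4.88% of the 82, against 12.5% of all genes. NDUFA4 and SDHB joined NDUFA5 and NDUFS4. NDUFA4 (ENSG00000189043) lies on chromosome 7 of hg38 from 10931951 to 10940256 on the minus strand, and had 67.9, 60.0 and 58.1 FPKM in shNC and 98.5, 79.6 and 83.6 FPKM in shACAT2 libraries. All shACAT2 libraries lay above the shNC libraries, with a log2 difference of 0.48 (SE 0.13) and a limma adjusted p of 0.0777 without and 0.0280 with the block. SDHB (ENSG00000117118), the iron-sulfur subunit of complex II, lies on chromosome 1 from 17018722 to 17054170 on the minus strand. Its level was 31.5, 26.0 and 26.2 FPKM in shNC and 43.2, 32.6 and 33.4 FPKM in shACAT2 libraries, and the lowest shACAT2 library lay just above shNC-1. Its log2 difference was 0.37 (SE 0.15), and the limma adjusted p was 0.187 without and 0.0386 with the block.

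**Figure D2:**
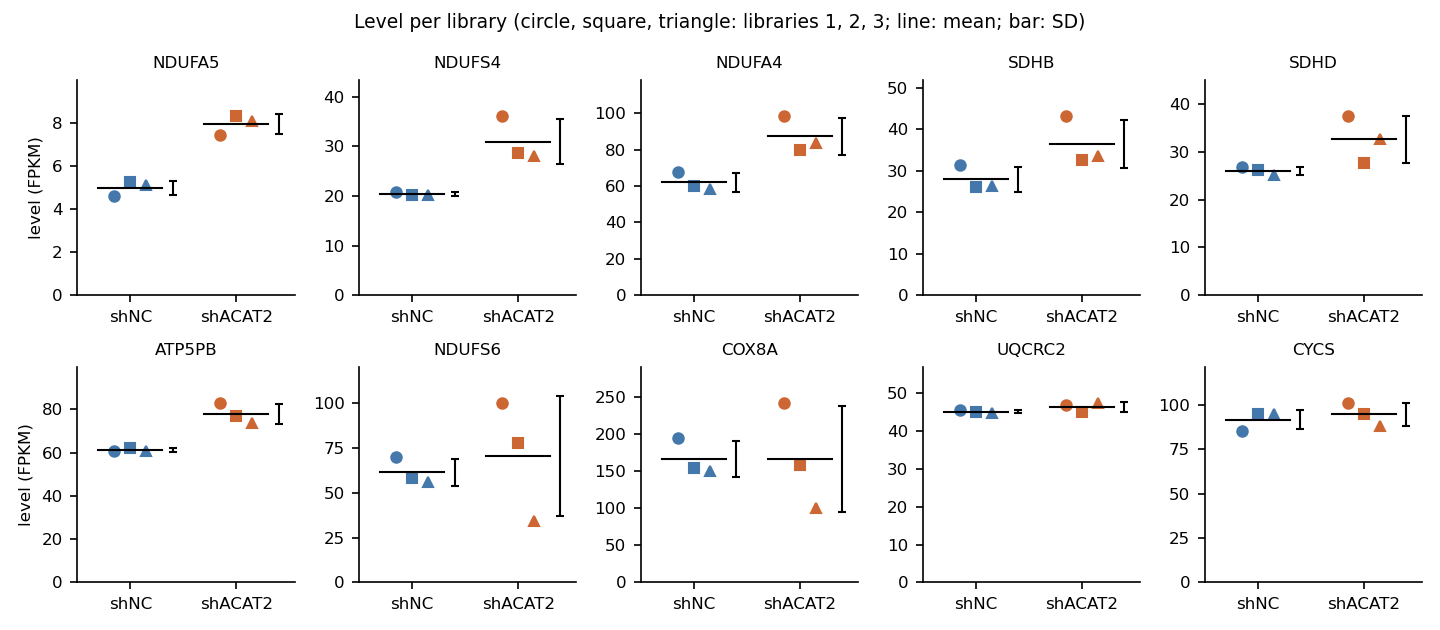
Level (FPKM, axes from 0) of 10 subunit genes in each library; circle, square and triangle are libraries 1, 2 and 3 of each group, lines are means and bars SD (n = 3). NDUFA5, NDUFS4, NDUFA4, SDHB, SDHD and ATP5PB do not overlap between the groups, while NDUFS6 and COX8A run from the highest to the lowest library within shACAT2, and UQCRC2 and CYCS vary little.

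In 11 of the 82 genes all shACAT2 values lay above all shNC values, or 13.4%, against 16.2% of all genes tested. They were NDUFA5, NDUFB5, NDUFC2, NDUFS1 and NDUFS4 of complex I, SDHB and SDHD of complex II, NDUFA4 and COX7B of complex IV, and ATP5F1C and ATP5PB of complex V. In 2 genes, NDUFA13 and NDUFA4L2, the 3 shACAT2 values were all lower than the lowest shNC value, or 2.44%, against 14.5% of all genes. Both lists fall outside the rule for named genes and were drawn up after the values were seen. Among them, ATP5PB, the b subunit of the peripheral stalk, lies on chromosome 1 from 111448864 to 111462773 on the plus strand. It had 60.8, 62.3 and 60.9 FPKM in shNC and 82.9, 77.2 and 73.7 FPKM in shACAT2 libraries, a log2 difference of 0.34 (SE 0.10, limma adjusted p = 0.102, and 0.0505 with the block). Of its exon bases, 10.4% are shared with WDR77 on the opposite strand. SDHD, a membrane anchor of complex II, had 26.8, 26.2 and 25.1 FPKM in shNC and 37.6, 27.8 and 32.7 FPKM in shACAT2 libraries, and shACAT2-2 lay just above shNC-1.

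Promoters of 4 members whose levels did not overlap are shown as examples with that of CYCS, whose levels did. They were chosen after values were seen. RefSeq windows on GRCh38.p14 matched 72 of the 92 genes and 10 of the 13 members without overlap, and 5 are printed from 210 bases before to 30 bases after the annotated start, in the direction of transcription. Capitals mark matches, on either strand, to the letters GCGCATGC (NRF1 core), CCGGAAG (ETS core), AAGATGGC (YY1 core) and TGACGTCA (CRE). NRF1, the ETS factor GABP and YY1 are known regulators of respiratory chain genes, and CRE is the cAMP response element. The windows are chr5:53560429-53560668 on the plus strand (NDUFS4), chr1:17054003-17054242 on the minus strand (SDHB), chr11:112086663-112086902 on the plus strand (SDHD), chr1:111449254-111449493 on the plus strand (ATP5PB) and chr7:25125231-25125470 on the minus strand (CYCS).
NDUFS4: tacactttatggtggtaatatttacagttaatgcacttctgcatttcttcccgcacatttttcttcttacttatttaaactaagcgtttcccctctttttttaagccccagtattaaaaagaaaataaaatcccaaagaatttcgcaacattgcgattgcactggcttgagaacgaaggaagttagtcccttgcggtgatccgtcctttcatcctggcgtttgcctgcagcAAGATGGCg
SDHB: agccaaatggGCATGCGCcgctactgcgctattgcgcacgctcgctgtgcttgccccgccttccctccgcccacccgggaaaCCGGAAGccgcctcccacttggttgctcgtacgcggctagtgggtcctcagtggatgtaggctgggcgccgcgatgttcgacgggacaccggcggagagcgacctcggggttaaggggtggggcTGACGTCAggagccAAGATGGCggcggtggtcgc
SDHD: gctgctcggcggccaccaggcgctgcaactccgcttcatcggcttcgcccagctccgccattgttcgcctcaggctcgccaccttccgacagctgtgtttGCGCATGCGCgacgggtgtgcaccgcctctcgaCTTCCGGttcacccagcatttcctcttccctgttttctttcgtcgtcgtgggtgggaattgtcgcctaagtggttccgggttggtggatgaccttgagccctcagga
ATP5PB: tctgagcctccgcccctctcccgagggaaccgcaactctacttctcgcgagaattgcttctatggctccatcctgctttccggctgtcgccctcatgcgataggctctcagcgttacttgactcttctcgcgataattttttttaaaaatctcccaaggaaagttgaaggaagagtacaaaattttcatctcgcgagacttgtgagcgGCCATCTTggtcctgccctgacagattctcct
CYCS: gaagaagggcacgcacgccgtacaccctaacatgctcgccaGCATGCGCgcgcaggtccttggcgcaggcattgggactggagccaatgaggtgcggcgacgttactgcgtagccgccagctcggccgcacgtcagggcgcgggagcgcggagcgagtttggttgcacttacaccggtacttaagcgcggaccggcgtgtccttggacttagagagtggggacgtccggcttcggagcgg
SDHB held all 4 motifs, with the NRF1 core starting 200 and the CRE 4 bases before the start. SDHD held an NRF1 core on both strands, in overlap, 110 and 108 bases before the start, and an ETS core 77 bases before it. NDUFS4 held the YY1 core, 21 bases after the start, and ATP5PB held it 2 bases before the start. CYCS held the NRF1 core 169 bases before the start. Of the other members without overlap, NDUFS1 and NDUFA13 held an ETS core and ATP5F1C an NRF1 core, while NDUFA5, COX7B and NDUFA4L2 held none of the 4. The RefSeq start of NDUFA5 lies outside the gene as the files place it.

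Over whole windows of 250 bases before to 50 after the start, 65 of the genes tested had a sequence. The NRF1 core was found in 14 of them, or 21.5%, against 6.03% of the 8901 genes tested with a window and 3.27% of all 27305. The YY1 core was in 10 (15.4%, against 5.94% and 3.03%), the ETS core in 20 (30.8%, against 20.8% and 10.7%) and the CRE in 5 (7.69%, against 3.54% and 1.98%). Any of the NRF1, ETS and YY1 cores was present in 34 of the 65 genes, or 52.3%, against 29.4% of the genes tested with a window. The median log2 difference between shACAT2 and shNC was 0.12 in these 34 and 0.10 in the 31 without one. A match of letters is a description and no binding site.

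Over all 82 genes, 70 had a log2 difference above 0 and 12 below 0, against 7234 and 6598 of all 13832 genes tested. The median was 0.12, against 0.02 over all genes tested, and the members ran from −0.32 to 0.58. By complex the median was 0.11 in complex I (28 of 34 above 0), 0.18 in complex II (4 of 4), 0.04 in complex III (7 of 10), 0.12 in complex IV (12 of 14) and 0.18 in complex V (18 of 19). CYCS, cytochrome c, had 85.5, 95.1 and 94.7 FPKM in shNC and 101, 95.1 and 88.2 FPKM in shACAT2 libraries, with a log2 difference of 0.05 (SE 0.11, limma adjusted p = 0.838). Its groups overlapped throughout, and the sign of its difference turned with total-fragment scaling. Scaled to the total of fragments, 56 of 83 genes had a difference above 0, and scaled to the fragments outside the mitochondrial genome, 54 of 84. With these 2 scalings the median was 0.07 and 0.06 in the members, against −0.03 and −0.04 over all genes.

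**Figure D3:**
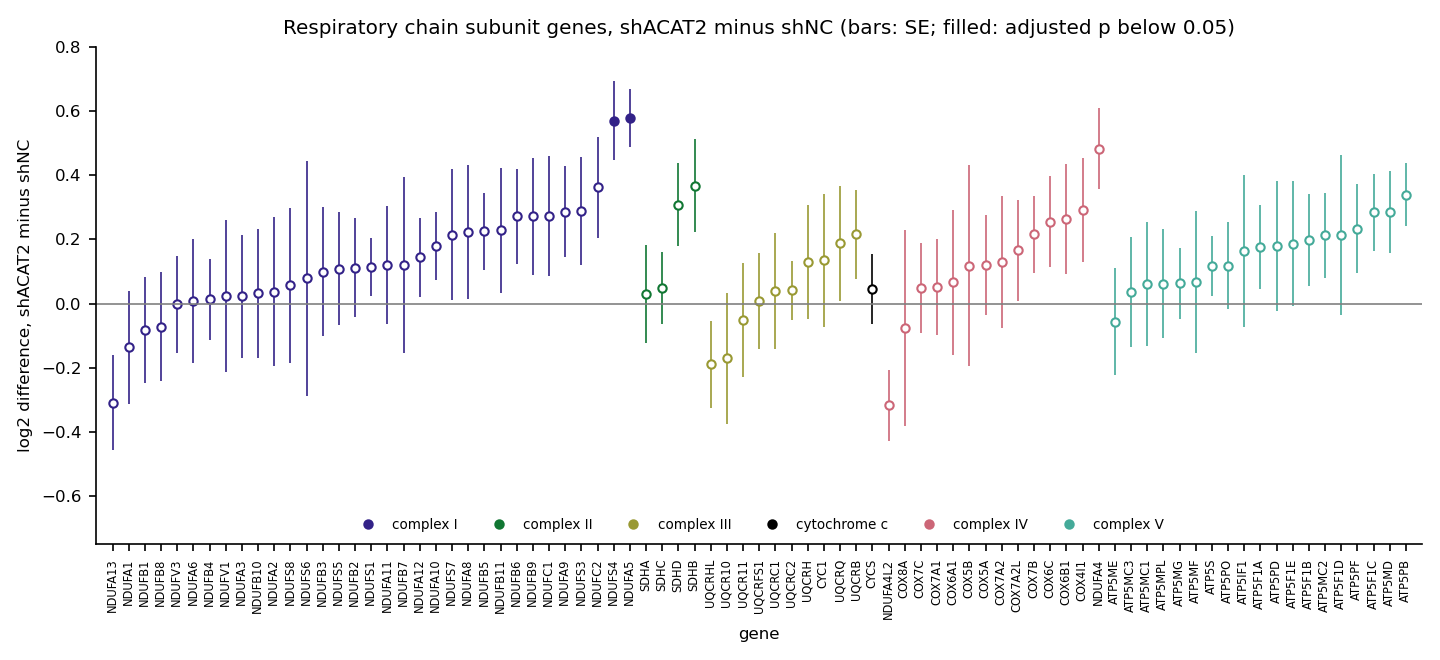
Log2 difference, shACAT2 minus shNC, with its SE for 81 of the 82 genes tested, grouped and coloured by complex; filled points passed a limma adjusted p of 0.05. Most points lie between 0 and 0.3, many but not all of them with bars that reach 0, and NDUFA5 and NDUFS4 are the filled points.

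The size of the shift differed between libraries. The library shACAT2-1 was the highest of the 6 in 73 of the 82 genes, or 89.0%, against 35.3% of all genes tested. At the other end, shACAT2-3 was the lowest in 38 genes, or 46.3%, against 25.4% of all genes. The median deviation of the members from their 6-library mean was 0.35 in shACAT2-1, 0.01 in shACAT2-2 and −0.17 in shACAT2-3, while the shNC libraries stood at 0.07, −0.13 and −0.11. Without shACAT2-1, the median log2 difference of the members was −0.02 and 37 of 82 were above 0, with shNC-1, the highest control, kept in. The median of complex II then stayed at 0.09. Without shACAT2-3 the median of all members was 0.27 and 77 of 82 were above 0.

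Between libraries of like number, taken here as pairs, the members lay mostly above 0 in pairs 1 and 2 and not in pair 3. The members' median difference of shACAT2-1 from shNC-1 was 0.27 (78 above 0, 4 below), that of shACAT2-2 from shNC-2 was 0.16 (67 and 15), and that of shACAT2-3 from shNC-3 was −0.07 (36 and 46). Across all 13832 genes tested the pair medians were 0.05, 0.03 and −0.02, with 7735, 7442 and 6523 genes above 0. In 33 genes shACAT2 was higher in all 3 pairs, or 40.2%, against 30.1% of all genes, and in 4 it was lower in all 3 pairs, or 4.88%, against 27.3%. In complex II the pair medians were 0.30, 0.09 and 0.18, in complex V 0.26, 0.17 and 0.04, and in complex I 0.31, 0.17 and −0.11. The summed level of all members was 5519, 4683 and 4688 FPKM in shNC and 6853, 5280 and 4689 FPKM in shACAT2 libraries, with shACAT2-3 close to shNC-3.

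Within shACAT2 the spread between libraries was wide for some genes and narrow for others. NDUFS6, a zinc-binding accessory subunit of complex I, had 100, 78.1 and 34.3 FPKM in shACAT2-1 to shACAT2-3 and 70.3, 58.1 and 55.9 FPKM in shNC. COX8A, a small subunit of complex IV, had 242, 159 and 99.8 FPKM in shACAT2 and 194, 154 and 150 FPKM in shNC libraries. In both genes shACAT2 held the highest and the lowest library of all 6. UQCRC2, a core protein of complex III, had 46.9, 44.9 and 47.3 FPKM in shACAT2 and 45.4, 45.0 and 44.7 FPKM in shNC libraries, a log2 difference of 0.04 (SE 0.09). NDUFS6 and UQCRC2 were chosen after their values were seen.

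The differences between libraries moved with GC content. Across the 82 genes, the difference of shACAT2-3 from shACAT2-1 had a Spearman correlation of −0.55 with the GC content of the longest coding transcript, and of −0.76 across 10775 protein-coding genes. It also moved with transcript length, at 0.51 and 0.56. For shNC-2 minus shNC-1 the correlation with GC was −0.18 in the members and −0.67 in all genes. These are correlations across genes of the same libraries and describe only them. Subunit transcripts were short, with a median of 1296 bases against 3447 for all genes, while their median GC content was 47.8% against 48.7%. The median log2 difference of shACAT2 from shNC was 0.17 in the 28 members of lowest GC, 0.15 in the 26 between and 0.05 in the 28 of highest GC. For this difference the Spearman correlation with GC was −0.33 in the members and −0.039 in all protein-coding genes. With transcript length it was 0.16 in the members and −0.275 in all protein-coding genes.

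**Figure D4:**
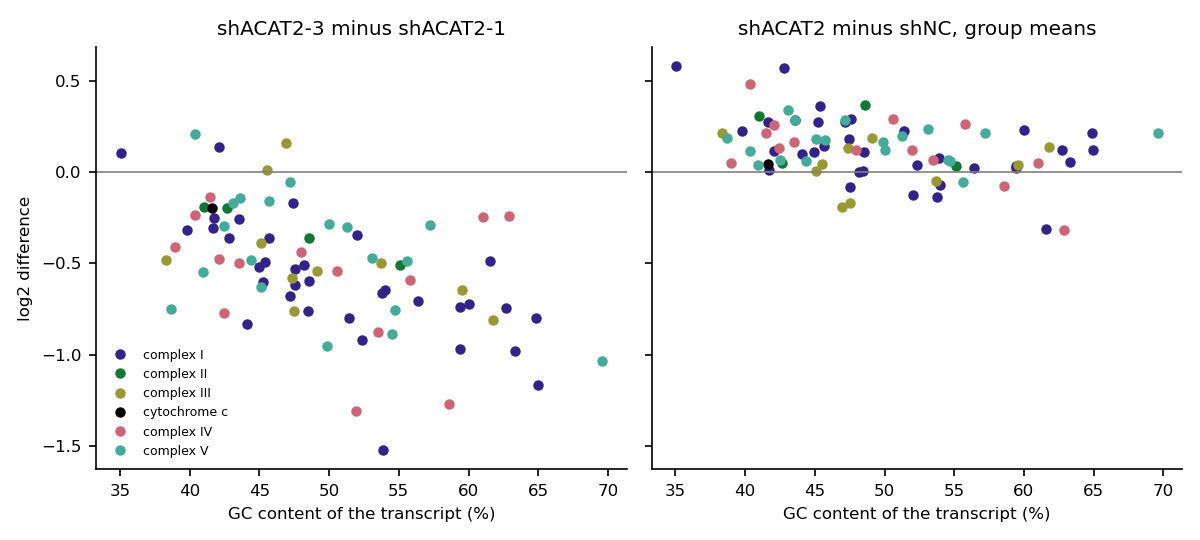
Log2 difference of shACAT2-3 from shACAT2-1 (left) and of the shACAT2 from the shNC mean (right) against the GC content of the transcript in percent, 1 point per gene, coloured by complex. The left cloud falls with GC, from a median of −0.31 in the 28 genes of lowest GC to −0.73 in the 28 of highest GC. Some genes at higher GC lie below −1, and the right cloud is narrower and mostly above 0.

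A correction of each library for GC content and length, added after the values were seen, left a median log2 difference of −0.02 in the members, with 40 of 82 above 0. The deviation of shACAT2-1 was then 0.10, and it was highest in 40 genes. With the correction 10 members passed an adjusted p of 0.05 in limma, or 12.2%, against 31% of the 10775 genes. NDUFA5 (0.53), NDUFS4 (0.35), NDUFA4 (0.34) and ATP5PB (0.26) were higher, and 6 were lower, among them NDUFA13 (−0.45), NDUFA4L2 (−0.45), UQCR10 (−0.37), NDUFA1 (−0.32) and NDUFB1 (−0.30). The part of GC content and length in the difference between the groups was not tested beyond this correction.

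Several subunits of complex IV and V have paralogs, and the share of each was compared. NDUFA4L2, a paralog of NDUFA4 known to be induced in hypoxia, made up 3.92%, 4.14% and 3.90% of the summed FPKM of the pair in shNC libraries and 2.08%, 2.34% and 1.89% in shACAT2 libraries. The shares did not overlap, with means of 3.99% and 2.10%, but 3 against 3 libraries allow no p under 0.1 (two-sided exact permutation test, p = 0.1, or 0.233 adjusted over 7 shares). NDUFA4L2 itself had 2.77, 2.59 and 2.36 FPKM in shNC and 2.09, 1.91 and 1.62 FPKM in shACAT2 libraries, a log2 difference of −0.32 (SE 0.11, limma adjusted p = 0.145).

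Among the 3 genes for the identical subunit c of ATP synthase, ATP5MC2 gave 44.8% to 45.5% of the summed level in shNC and 45.7%, 46.4% and 52.2% in shACAT2 libraries. ATP5MC3 gave 26.6%, 24.6% and 25.0% in shNC and 24.0%, 24.6% and 22.9% in shACAT2 libraries. Neither share overlapped between the groups (two-sided exact permutation test, p = 0.1 each), although single libraries lay close together. For complex IV, COX4I1, COX6A1, COX6B1, COX7B and COX8A held at least 98.3% of their pairs in every library, against COX4I2, COX6A2, COX6B2, COX7B2 and COX8C. COX4I2 reached 1.06 FPKM in shACAT2-3 and at most 0.0950 FPKM in the other libraries. In the COX7A family COX7A2 held 66.7%, COX7A2L 30.8% and the muscle form COX7A1 2.46% of the mean shNC level. UQCRHL, an intronless copy of UQCRH, had 3.25% of the level of the pair in shNC, and reads of the copies may have been split.

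The highest and the most distinct genes of the remaining complexes did not pass. UQCRB, a small subunit of complex III, had 10.6, 10.9 and 11.3 FPKM in shNC and 14.8, 13.9 and 10.4 FPKM in shACAT2 libraries, a log2 difference of 0.22 (SE 0.14, limma adjusted p = 0.398). For UQCRH the log2 difference was 0.13 (SE 0.18, limma adjusted p = 0.711), and for COX6B1 it was 0.26 (SE 0.17, limma adjusted p = 0.402). ATP5F1B differed by 0.20 (SE 0.14, limma adjusted p = 0.453) and NDUFS5 by 0.11 (SE 0.18, limma adjusted p = 0.758). In each of these 5 genes shACAT2-1 was the highest library and the groups overlapped.

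Genes that build and serve the chain were read from fixed lists, by the adjusted p of limma over all genes. Of all genes tested, 5.1% passed, and the counts of each list stand beside that share. TMEM70, an assembly factor of ATP synthase, had 14.3, 12.8 and 13.4 FPKM in shNC and 26.1, 20.6 and 24.0 FPKM in shACAT2 libraries, a log2 difference of 0.75 (SE 0.12, limma adjusted p = 0.0187), and was the 1 gene of 3 tested in its list that passed. The other 2, ATPAF1 and ATPAF2, were below 0, at −0.04 and −0.31 (limma adjusted p = 0.860 and 0.190). COX18, which inserts a complex IV subunit into the membrane, rose by 0.52 (SE 0.10, limma adjusted p = 0.0363), 1 of 21 assembly factors of complex IV. SDHAF3, an assembly factor of complex II, rose by 0.47 (SE 0.10, limma adjusted p = 0.0477), 1 of 4. In that list 2 genes were above 0 and 2 below, among them SDHAF4 at −0.27 (limma adjusted p = 0.155). None of 19 assembly factors of complex I and none of 6 of complex III passed in limma, while 2 and 1 had an unadjusted p below 0.05, as had 23.5% of all genes tested. NDUFAF2, of complex I, had 35.0, 30.2 and 31.8 FPKM in shNC and 50.6, 39.4 and 38.7 FPKM in shACAT2 libraries (log2 difference 0.39, limma adjusted p = 0.148, and 0.0459 with the block). UQCC1, of complex III, had a log2 difference of −0.24 (limma adjusted p = 0.193).

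COQ10B, which binds coenzyme Q, had 3.96, 4.12 and 4.09 FPKM in shNC and 8.52, 7.80 and 7.83 FPKM in shACAT2 libraries. Its 2 groups were far apart, with a log2 difference of 0.84 (SE 0.08, limma adjusted p = 0.0054). It was the 1 of 13 coenzyme Q genes that passed, against 5.1% of all genes tested. Of the mitochondrial ribosomal proteins, 52 of 77 had a log2 difference above 0 with a median of 0.07, and MRPS6 alone passed (0.57, SE 0.12, limma adjusted p = 0.0490). Their libraries were ordered as those of the subunits at the top, with a median deviation of 0.31 in shACAT2-1. None passed in limma among 6 genes that feed electrons to ubiquinone, 7 of cardiolipin synthesis and 13 carriers, porins and import genes. At an unadjusted p below 0.05 in limma were 3, 2 and 1 of them, against 23.5% of all genes tested. The smallest p of these lists belonged to CHDH, choline dehydrogenase (−0.51, limma adjusted p = 0.0693, and 0.0413 with the block), CRLS1, cardiolipin synthase (0.39, 0.106 and 0.0303), and VDAC2, a porin (0.41, 0.152 and 0.0444).

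No gene among 15 nuclear regulators of mitochondrial genes passed in limma, and 3 had an unadjusted p below 0.05, against 23.5% of all genes tested. GABPB2, a partner of the ETS factor GABPA, had 3.12, 3.34 and 3.34 FPKM in shNC and 2.50, 2.49 and 2.39 FPKM in shACAT2 libraries (log2 difference −0.30, limma adjusted p = 0.0947). PPRC1, a PGC-1 related coactivator named here after its values were seen, had a difference of −0.34 (limma adjusted p = 0.102, and 0.0441 with the block). The log2 difference was 0.07 for NRF1, −0.18 for GABPA and −0.03 for TFAM, and their groups overlapped. PPARGC1A, the coactivator PGC-1alpha, was at 0.055 FPKM or less in every library.

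The subunits encoded by the mitochondrial genome showed another order of libraries. None of 13 passed in limma, and 1 had an unadjusted p below 0.05, against 23.5% of all genes tested. Of the 13, 5 were above 0 and 8 below, with a median log2 difference of −0.09. Their median deviation was −0.02 in shACAT2-1, −0.21 in shACAT2-2 and 0.15 in shACAT2-3, where that of the nuclear subunits was 0.35, 0.01 and −0.17. The mitochondrial chromosome held 6.56%, 6.33% and 6.41% of fragments in shNC and 5.13%, 5.11% and 7.03% in shACAT2 libraries. MT-ND4L, of complex I, had 4321, 4398 and 4395 FPKM in shNC and 2497, 3080 and 3761 FPKM in shACAT2 libraries (log2 difference −0.51, SE 0.16, limma adjusted p = 0.117, and 0.0379 without shACAT2-3). Its groups did not overlap, and shACAT2-1 was the lowest. MT-CO1 (−0.33, limma adjusted p = 0.215) was also lower without overlap, which makes 2 of 13, against 14.5% of all genes tested. MT-ND4, also of complex I, was at −0.15 (limma adjusted p = 0.583), and its groups overlapped.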

How the data were processed

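Total RNA of 3 shNC and 3 shACAT2 samples of HGC-27 cells was sequenced. The authors deposited FPKM values per gene. The submitters' processing notes name HISAT2 2.0.5, featureCounts 1.5.0-p3, DESeq2 1.20.0 and genome build hg38, without settings, so the use of strand is not given in the sources used here. Multiplied by gene length, 100% of values were whole multiples of 1 fragment (tolerance 0.05). Groups and replicate numbers came from the sample titles.

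The members and gene lists were chosen with earlier results of these data known. Differences were tested with limma 3.58.1 in R 4.3.3 (trend in the prior variance; log2 of FPKM with a pseudocount of 1), where a group mean reached 1 FPKM, with Benjamini-Hochberg adjustment over all genes tested. Fold changes on this scale understate those of low genes. Counting and figures used Python 3.11.15, pandas 2.3.3, numpy 2.4.6 and matplotlib 3.10.9. On simulated data, 95% of 100 genes changed by 1 and 52% of 100 changed by 0.5 on the log2 scale were called among 13347 genes, with 11 unchanged genes. The simulation gave every gene the same noise and no shift of libraries with GC content or length. These shares may therefore be too high for subunits with a wider spread between libraries.

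Named genes were the members past an adjusted p of 0.05, the highest and the smallest-p member of each complex, members with paralogs, ACAT2, and in each further list up to 3 genes past the threshold or otherwise the gene of smallest p. Correlations of deviations from the group means for replicate numbers 1, 2 and 3 were 0.445, 0.126 and 0.171, each over 0.1. The numbers were treated as pairs, although shNC-2 with shACAT2-3 gave 0.198 and shNC-3 with shACAT2-2 gave 0.141. Gene and promoter positions were taken from GENCODE 29 and RefSeq. Of the members, 50 share exon bases with another gene, 16 of them over 20%, and 46 have named pseudogenes, which held 0.399% of fragments and at most 46.9% (NDUFV2), followed by 12.9% (SDHA). The alternatives were 4 scalings, 2 filters, a pseudocount of 0.1, limma-voom on fragments, the replicate block, shNC-2 and shNC-3 averaged, and each library left out. A loess correction of each library for GC content and length (span 0.5) was added after the data were seen. The values of 1 member are not reported here.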

Additional observations from a re-analysis of the deposited data

How the results depend on the processing

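The 2 subunits past the adjusted p of limma, both higher, were also 2 with median-of-ratios scaling, at least 10 fragments in every library and a pseudocount of 0.1, and 3 with total-fragment scaling, scaling outside the mitochondrial genome and limma-voom. In these settings 4.92% to 7.35% of all genes tested passed, against 5.1% in the main fit. There was 1 with upper-quartile scaling and 0 with no filter or after averaging shNC-2 with shNC-3 (7 and 5 at an unadjusted p below 0.05). The share of all genes that passed was 4.78% with upper-quartile scaling, 0.508% with no filter and 0.600% after the averaging. Leaving out 1 library gave 0 to 2, all higher, and 0 lower. Without shACAT2-1 or shACAT2-3, 6.19% and 5.10% of all genes passed, and without any other library 0.454% to 0.970%. The replicate block, which treats the numbers as pairs, gave 4, all higher, beside 12.5% of all genes tested. On the further lists it also brought PPRC1, NDUFAF2, CHDH, CRLS1, VDAC2, SDHAF2, COX11, GPD2, TAMM41, MRPS35, MRPS10, MRPL47, MRPL32 and, of the other cell type markers, VIM and COL1A2 past the threshold. The GC and length correction gave 10, of which 4 higher and 6 lower, and with the replicate block 21, of which 10 higher and 11 lower, beside 3345 and 4264 of 10775 genes. Fewer samples or more genes tested enter some of these. For the other settings, the cause was not tested.

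The median log2 difference of the members lay between −0.02 and 0.27 with 1 library left out, and was below 0 without shACAT2-1 and with the correction. That of all genes stayed between −0.04 and 0.06 under every setting. NDUFS5 turned to −0.053 without shACAT2-1 (up to 0.246 with 1 library left out) and to −0.10 with the correction, with and without the block. UQCRH turned to −0.018 (up to 0.272) and −0.081 in the same settings. CYCS, up to 0.096 with 1 library left out, turned to −0.0065 with total-fragment scaling, −0.017 outside the mitochondrial genome, −0.0038 without shNC-1 and −0.00090 without shACAT2-1. NDUFA5, NDUFS4, NDUFA4, SDHB and ATP5PB stayed above 0 in all 18 alternatives. TMEM70, COX18, SDHAF3 and MRPS6 passed in 13, 11, 10 and 9 of 18, and COQ10B in 17. In a simulation with the same noise for every gene, changes of 0.5 on the log2 scale were called in 52% of genes. That share may be too high for members with a wider spread. A member that missed the threshold is not shown to be equal.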

Other observations

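Of the 10 subunit genes under the filter, NDUFA7 had 1.11, 0.786 and 0.985 FPKM in shNC and 1.03, 0.511 and 0.424 FPKM in shACAT2 libraries. NDUFC2-KCTD14 and COX6A2 were listed at 0 in all 6 libraries. The mesenchymal gene ACTA2 had 4.44, 3.73 and 3.16 FPKM in shNC and 19.7, 14.3 and 14.9 FPKM in shACAT2 libraries, highest in shACAT2-1.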
